A study of Ovis aries and Bos taurus with 6 samples.

Results

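The miR-34 family and miR-31 were examined in small RNA of milk extracellular vesicles (EVs), small membrane-bound particles released by cells with miRNAs inside. The members are miR-34a, miR-34b, miR-34c and miR-31, and they were chosen by their counts in sheep replicate 1 set against sheep replicates 2 and 3. In the sheep table a row counted as a member where its listed sequence held the mature miRNA over 17 or more bases, and in the cow table where its miRBase name was that of a member. All 4 members were found in sheep, in 6 of 685 rows, none of which carried a miRBase name. In cow, named rows were found for miR-31 and miR-34a, 2 of 779 rows. miR-34b and miR-34c in cow are not analysed here.

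The sheep group has 3 libraries (breed Ordos fine wool sheep) and the cow group has 3 (breed Holstein), all of females in mid lactation, with no treatment or allele given for either group. EVs were isolated from milk with a precipitation kit, which does not separate vesicles by the cell that shed them. The cow libraries come from an earlier study, per the design text, and a difference of species cannot be told apart from one of breed or of study. The labels speak of 3 sheep. They do not state whether each cow library is a separate animal, so p-values measure only the spread between these libraries.

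miRNAs guide a silencing complex to messenger RNAs mainly through the seed, bases 2 to 8 from their 5′ end. miR-34a, miR-34b and miR-34c share a seed and are known as targets of the tumour suppressor p53, which acts in the response to DNA damage and other stress. miR-34a has a gene of its own, whereas miR-34b and miR-34c are cut from a shared transcript, known from airway and other multiciliated cells and from testis. miR-31 has another seed and is known from keratinocytes and other epithelia, where it has been tied to skin renewal and wound repair.

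The sequences of the 6 sheep rows are shown because they carry both the identity of the members and the seed they share. They are as listed in the deposited sheep table, with the seed in capitals.
miR-34a: tGGCAGTGtcttagctggttgtt
miR-34b: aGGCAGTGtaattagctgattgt
miR-34c: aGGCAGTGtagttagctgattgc
miR-34c short form: aGGCAGTGtagttagctgat
miR-34c-3p: aATCACTAaccacacggccagg
miR-31: aGGCAAGAtgctggcatagctgt

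The seed GGCAGTG stood in 4 of the 685 sheep rows, all of them rows of miR-34, and the seed of miR-31 stood in 1 row. miR-34b and miR-34c matched at 21 of 23 bases. Counted from the 5′ end of miR-34c, the substitutions to miR-34b were G11A and C23T. The short form is the first 20 bases of miR-34c, so it keeps the seed and lacks the end. miR-34c-3p comes from the other arm of the miR-34c hairpin and has a seed of its own. miR-34c and miR-31 have their first 5 bases in common and part within the seed. Because miR-34b and miR-34c are so alike, a read with an error at one of these positions could have been counted in the other row, and the sources used here do not say how such reads were counted.

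Total miRNA counts lay between 1073914 and 2078695 in the sheep libraries and between 328527 and 556489 in the cow libraries. Levels are given as CPM, the counts of a row in every 1000000 miRNA counts of its library. Where a row has no count, a floor of 3 counts corresponds to at most 2.79 CPM in a sheep library and 9.13 CPM in a cow library. Wilson intervals (95%) and these floors cover counting error only, since PCR copies are not independent molecules. Sheep replicate 1 stood apart from the others. miR-148a, a miRNA abundant in lactating mammary epithelium, held 195857 CPM there against 636087 and 379859 CPM in replicates 2 and 3. A share this large lowers the CPM of all other rows, so member values are also given as CPM of the counts left without miR-148a.

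Among the sheep libraries, miR-34c, miR-34b and miR-31 were low in replicate 1 and high in replicates 2 and 3, by 34-fold for miR-34c and 172-fold for miR-34b when the mean of the latter is set over the former. miR-34a did not share this pattern and, by CPM, was highest in replicate 1. This contrast was used to choose the members, so the values describe these libraries and carry no test. It sets 1 library against 2.

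miR-34c was the most abundant member, at rank 41 of all sheep rows by mean CPM. It had 105, 4120 and 4780 counts in replicates 1, 2 and 3, which are 94.5, 1982 and 4451 CPM (mean 2176 ± 2185, SD, n = 3). Replicate 1 lay 21.0-fold below the lower of the other two libraries. Without miR-148a the values were 118, 5446 and 7177 CPM, and replicates 2 and 3 drew nearer to each other, from 2.25-fold to 1.32-fold apart.

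miR-34b, which shares its transcript with miR-34c, ranked 64 in the table. Its counts were 8, 1292 and 1998, or 7.20, 622 and 1860 CPM (mean 830 ± 944, SD, n = 3). Replicate 1 was 86.3-fold below replicate 2, the lower of the others. The 8 counts in replicate 1 make this the least precise of the ratios given for the main rows of miR-34b, miR-34c and miR-31. Without miR-148a the values were 8.96, 1708 and 3000 CPM.

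miR-34a ranked 203. Its counts were 146, 87 and 95, which are 131 (Wilson interval 112 to 155), 41.9 (33.9 to 51.6) and 88.5 CPM (72.4 to 108), with a mean of 87.3 ± 44.8 (SD, n = 3). The 3 intervals did not overlap on this scale. Replicate 1 was 2.02-fold above the mean of the others, and 1.27-fold above it without miR-148a, at 163, 115 and 143 CPM. How far replicate 1 stood above the mean of the others thus moved with the scale, and it was not the highest library on every scale used below.

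miR-31 ranked 84. It had 16, 649 and 1345 counts, or 14.4 (Wilson interval 8.87 to 23.4), 312 (289 to 337) and 1252 CPM (1187 to 1321), with a mean of 526 ± 646 (SD, n = 3). Replicate 1 was 54.3-fold below the mean of the others and 21.7-fold below replicate 2. Replicates 2 and 3 were 4.01-fold apart, and 2.35-fold apart without miR-148a, a wider gap than that of miR-34c.

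**Figure D1:**
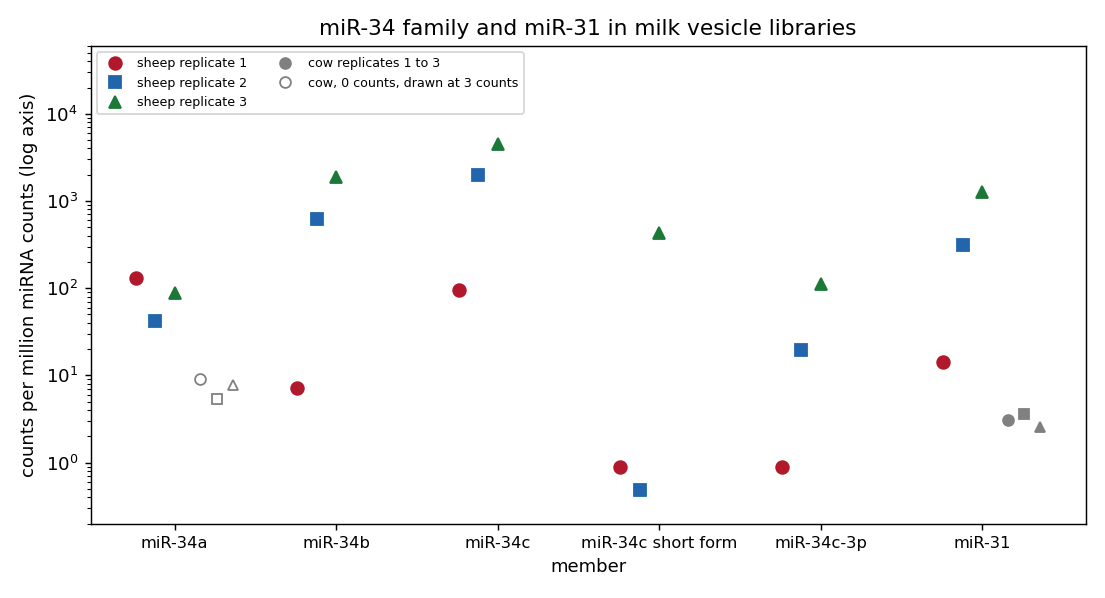
Level in CPM (log axis) of each member row in every library, 1 point per library. Sheep replicate 1 lies below both other sheep replicates for miR-34b, miR-34c, miR-34c-3p and miR-31 and above them for miR-34a; open cow symbols mark libraries with 0 counts, drawn at the floor of 3 counts.

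On the log2(CPM + 1) scale, the difference between replicate 1 and the mean of replicates 2 and 3 was -7.24 for miR-34b, -5.67 for miR-31, -5.07 for miR-34c and 1.00 for miR-34a. Of 469 rows with a mean of at least 5 CPM, the median difference was 0.44, so most rows leaned towards replicate 1. Without miR-148a the median became -0.29 and the members stood at -7.89, -6.25, -5.73 and 0.34. Counted from the lowest difference, miR-34b was 2nd of the 469 rows, miR-31 was number 20, miR-34c number 51 and miR-34a number 272.

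**Figure D2:**
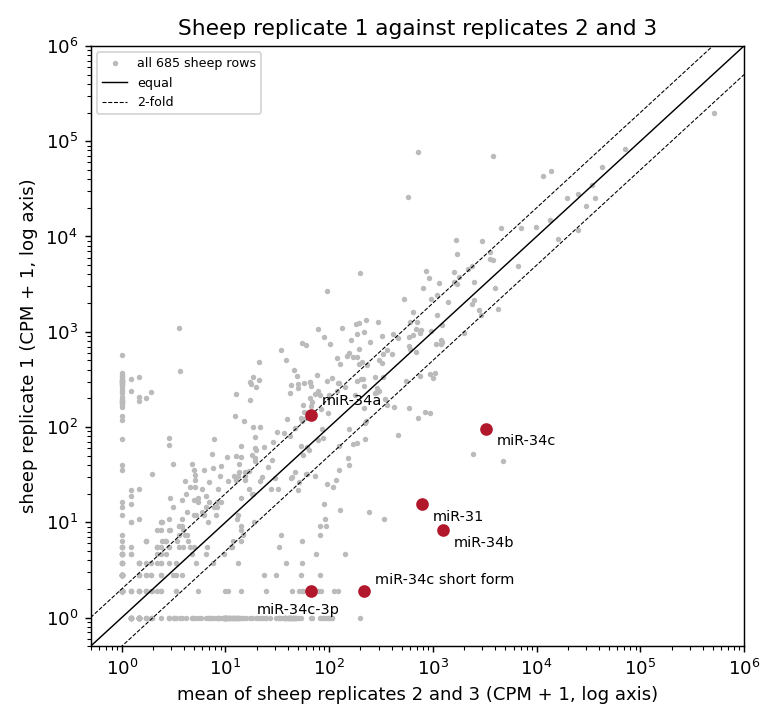
Sheep replicate 1 against the mean of replicates 2 and 3 (CPM + 1, both axes logarithmic), with all 685 sheep rows in grey and the 6 member rows in red. The solid line marks equal values and the dashed lines a 2-fold difference; 5 member rows lie below the lower dashed line, and miR-34a, at 2.02-fold, lies at the upper one.

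A row was counted as low in replicate 1 when its CPM + 1 was at least 2-fold below both other replicates. This held for miR-34b, miR-34c, miR-34c-3p and miR-31, 4 of the 6 member rows, and for 7.89% of all 469 rows. The same 4 rows passed without miR-148a, where the share of all rows was 18.6%. Since the rule for the members used this contrast, nothing is read from these shares. miR-34a and the short form passed in neither direction, while 33.9% of all rows were at least 2-fold above both other replicates, and 25.2% were so without miR-148a. Of the rows low in replicate 1, 32 had a mean of at least 20 CPM. A name, from miRBase or given here by sequence, was held by 7 of these: miR-34b, miR-34c, miR-34c-3p, miR-31, miR-652, miR-20a and let-7d. The others were left without a name, which does not show that they are unlike known miRNAs.

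The authors' deposited values, termed TPM, divide each count by a library constant that is far above the miRNA total. On log2(TPM + 1) the difference was -5.86 for miR-34b, -4.60 for miR-34c, -4.60 for miR-31 and 1.22 for miR-34a. The TPM values are about an order of magnitude lower than CPM, so adding 1 shrinks differences of low rows more. With TMM factors, which scale libraries on the bulk of their rows, miR-34a stood at 0.0046, level with the mean of the other replicates. On that scale miR-34a was highest in replicate 3. There miR-34b, miR-34c and miR-31 stood at -8.08, -6.06 and -6.51. The direction of these 3 members was thus the same on each of the 4 scales, while the size of the miR-34a difference ranged from 0.0046 to 1.22.

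**Figure D3:**
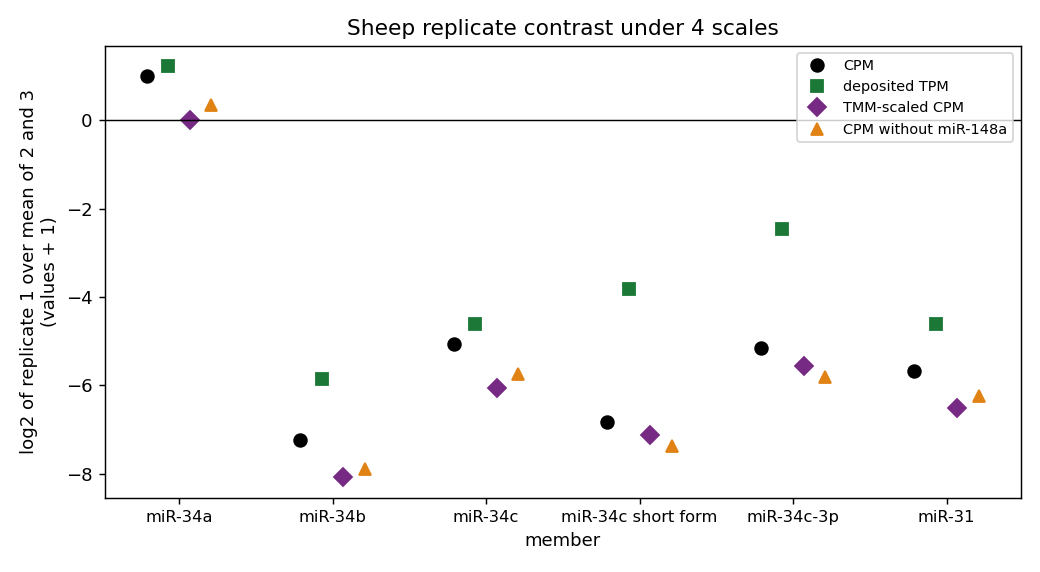
Log2 difference of sheep replicate 1 from the mean of replicates 2 and 3, after adding 1, for each member row on 4 scales. miR-34a lies between 0.0046 and 1.22, and the 5 other rows lie below 0 on every scale, with the deposited TPM values nearest to 0.

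Because the 4 rows with the miR-34 seed would guide to the same sites by seed, their sum and its make-up were compared. The sum was 260, 5500 and 7338 counts, or 0.0234%, 0.265% and 0.683% of the miRNA counts in replicates 1, 2 and 3. In replicate 1 the seed came mostly from miR-34a, with 56.2% of these counts (Wilson interval 50.1 to 62.1). In replicates 2 and 3 miR-34a held 1.58% (1.28 to 1.95) and 1.29% (1.06 to 1.58). miR-34c, both lengths summed, held 40.8% (35 to 46.8) in replicate 1 and led in the others, at 74.9% (73.8 to 76.1) and 71.5% (70.4 to 72.5). These shares are within a library and do not depend on its scaling.

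**Figure D4:**
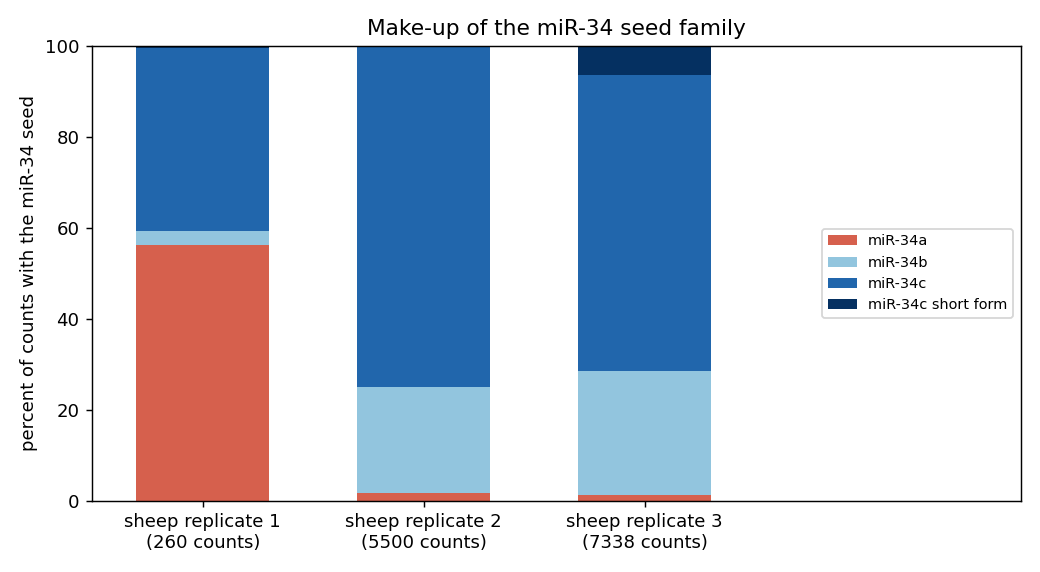
Share of each miR-34 row in the counts that carry the seed GGCAGTG, as stacked percentages for each sheep library, with the number of counts under each bar. miR-34a makes up 56.2% in replicate 1 and under 2% in replicates 2 and 3, where miR-34c leads.

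miR-34b and miR-34c, from a shared transcript, also differed in ratio. Per 100 counts of miR-34c of either length there were 7.55 counts of miR-34b in replicate 1, against 31.4 and 38.1 in replicates 2 and 3. The ratio in replicate 1 rests on 8 counts of miR-34b. Replicates 2 and 3 were thus nearer to each other in this ratio than either was to replicate 1.

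miR-34c-3p, the arm that is usually degraded, had 1, 41 and 121 counts, or 0.900, 19.7 and 113 CPM. It made up 0.935%, 0.985% and 2.25% of the counts of both arms, so the minor arm was rare in every library. The value in replicate 1 rests on 1 count. The short form of miR-34c had 1, 1 and 465 counts, or 0.900, 0.481 and 433 CPM, so it was high in replicate 3 and near 0 in both others. It made up 0.943% of miR-34c in replicate 1 (Wilson interval 0.167 to 5.15), 0.0243% in replicate 2 (0.00428 to 0.137) and 8.87% in replicate 3 (8.13 to 9.67). Replicate 2, with 4120 counts of the long form, had 1 of the short form, which sets it apart from replicate 3. Over all sheep rows of at most 20 bases, 259 in number, the share of all miRNA counts was 2.49%, 0.756% and 2.60%. On this scale short rows as a whole were about as frequent in replicate 1 as in replicate 3. The scale includes miR-148a, which held 19.6% of the counts in replicate 1 and 38.0% in replicate 3, and the shares without it were not compared.

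The sheep rows whose profile was most like a member's were found by the distance between log2(CPM + 1) values centred over the 3 libraries, among 339 rows with a mean of at least 20 CPM. With 3 libraries this is a description. Nearest to miR-31 was a row without a miRBase name, novel227, at a distance of 0.18, followed by novel66 (star arm), novel271, novel234 and novel165 at 0.44, 0.49, 0.57 and 0.69. Nearest to miR-34c was novel165 at 0.27, followed by novel227, novel234, novel66 (star arm) and novel418 at 0.50, 0.56, 0.58 and 0.62. miR-31 itself lay at 0.67 from miR-34c, 0.64 from miR-34c-3p, 1.41 from miR-34b, 4.57 from the short form and 5.30 from miR-34a. miR-34a lay at 4.95 from miR-34c, with which it shares a seed, farther than miR-31, which does not.

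Among these rows, 4 were near both members, and their sequences are printed as listed, with bases 2 to 8 in capitals, to show whether they resemble the members.
novel227: aAAACCTTgatgaactttttga
novel66 (star arm): tAGTGTGCtagagtcctcgaaga
novel234: tAGGTAGTtttatgttgttggg
novel165: gAAACTGGaacgaactttttgg
None has the seed of miR-34 or of miR-31. In replicates 1, 2 and 3, novel227 had 0, 20.7 and 71.7 CPM and novel66 had 0.900, 26.0 and 104 CPM. novel165 had 0.900, 29.3 and 78.2 CPM, and novel234 had 9.90, 142 and 524 CPM. All were low in replicate 1 and highest in replicate 3, below the level of miR-31 in each library.

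In cow the members were near or under the limit of detection. miR-31 had 1, 2 and 1 counts in cow replicates 1, 2 and 3, or 3.04, 3.59 and 2.58 CPM (mean 3.07 ± 0.508, SD, n = 3), each below the floor of 3 counts. miR-34a was listed with 0 counts in all 3 cow libraries, which allows up to 9.13, 5.39 and 7.74 CPM. Sheep replicate 1, the lowest sheep library for miR-31, had 14.4 CPM. Rows with a miRBase name held 21.5%, 29.0% and 15.8% of the cow counts, and cow rows without a name were not searched by sequence, so cow reads of a member may lie in them.

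The species were compared by edgeR's quasi-likelihood test over 115 joined miRNA names. miR-31 was higher in sheep, with a log2 fold change of 5.82 ± 1.56 (SE, 3 libraries each) and a Benjamini-Hochberg adjusted p of 0.00458 from edgeR. From 2010 sheep and 4 cow counts, the ratio of normalized rates was 46.2, with a counting interval of 18 to 170. It was 19.9 without sheep replicate 3 and 70.9 without sheep replicate 1, so single sheep libraries set its size. On the normalized scale, sheep replicate 1, at 14.1, lay within the cow range of 11.9 to 15.2, whereas replicates 2 and 3 were far above it, at 491 and 1815 normalized CPM.

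miR-34a was also higher in sheep, with an adjusted p of 0.0123 in edgeR. Its normalized CPM was 129, 65.8 and 128 in sheep and 0 in each cow library, so every sheep library lay above every cow library. This held for 37.4% of the 115 names. Names with every cow library above every sheep library are not in that share. Set against 3 counts over the cow group, it was at least 10.1-fold higher in sheep. That bound was 5.54-fold without cow replicate 2. Of all 115 names, 31.3% were called higher in sheep and 24.3% higher in cow. miR-34a entered the test through its sheep counts alone. miR-31 entered it through sheep replicates 2 and 3 and the 1 count in cow replicate 3. With so few cow counts, their being called, 2 of 2, is no support for a difference of the family. The named cow rows also cover only part of the cow counts.

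All members together made up 0.0249%, 0.298% and 0.820% of the miRNA counts in sheep replicates 1, 2 and 3 (mean 0.381 ± 0.404, SD, n = 3). In cow the named rows made up 0.000304%, 0.000359% and 0.000258%. The spread among the sheep libraries was as large as their mean.

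Other miRNAs tied to the same settings were taken as lists. miR-449a, miR-449b and miR-449c, which carry the miR-34 seed and are known from multiciliated cells, had no named row in either table, and no sheep row besides those of miR-34 held the seed. Of 10 miRNAs known to be induced by or tied to p53, 8 were found in sheep. Of these, miR-143, miR-145, miR-192 and miR-215 were at least 2-fold above both other libraries in replicate 1, and none was below. That is 4 of 8, beside 33.9% of all 469 rows, and 3 of 8 without miR-148a, beside 25.2%. miR-215 had 4137, 102 and 296 CPM and miR-192 had 1269, 228 and 363 CPM in replicates 1, 2 and 3. Both were highest in replicate 1. miR-107, with 24.3, 9.62 and 177 CPM, was highest in replicate 3, as miR-34b and miR-34c were. miR-200c, an epithelial miRNA, had 3159, 1036 and 2371 CPM.

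Of 7 miRNAs known from keratinocytes and skin, all were found in sheep and none passed 2-fold in either direction. Without miR-148a, miR-24 was at least 2-fold below both others in replicate 1. The summed level of the list was 11380, 8091 and 15766 CPM. miR-203, which drives keratinocytes to differentiate, had 217, 50.0 and 147 CPM. miR-205, a miRNA of stratified epithelium, had 80.1, 31.8 and 49.4 CPM, and miR-184 had 319, 42.8 and 376 CPM. These 3 had their lowest CPM in replicate 2, though miR-205 was lowest in replicate 3 without miR-148a, at 99.7, 87.2 and 79.6 CPM. miR-24, with 3990, 4619 and 9265 CPM, had the order of miR-31, lowest in replicate 1 and highest in replicate 3. miR-27b was lowest in replicate 3, with 1049, 827 and 712 CPM, so the list had no common order.

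Between species, 8 of the p53 list were tested in edgeR, of which 1 was higher in sheep, 1 higher in cow and 6 did not pass. The median log2 fold change was -1.19, against 0.28 over all 115 names. miR-200c was higher in sheep (4.76 ± 0.97 SE, edgeR adjusted p = 0.000451). miR-192, known from liver, kidney and gut, was higher in cow (-3.53 ± 0.69 SE, edgeR adjusted p = 0.000324). Of those that did not pass, the 4 of highest normalized mean over both species were miR-143 (0.28 ± 0.64), miR-215 (-1.25 ± 0.89), miR-16b (-1.94 ± 1.15) and miR-107 (-1.14 ± 1.39), as log2 fold changes with SE. miR-194, which did not pass either, was close behind and exceeded miR-107 in mean CPM.

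Of the keratinocyte list, 5 were tested, with 1 higher in sheep, 1 higher in cow and 3 that did not pass, at a median log2 fold change of -0.20. miR-24-3p was higher in sheep (1.65 ± 0.63 SE, edgeR adjusted p = 0.0341), a call lost when sheep replicate 2 or 3 or cow replicate 1 or 3 was left out, at 1.81, 1.19, 1.79 and 1.70. miR-27b was higher in cow (-4.47 ± 0.65 SE, edgeR adjusted p = 1.51e-05). miR-125b had a log2 fold change of -0.20 ± 0.56 (SE), miR-184 one of 3.25 ± 1.54 with an edgeR adjusted p of 0.0771, and miR-205 one of -2.38 ± 1.15 with an edgeR adjusted p of 0.0803. miR-184 passed with DESeq2 (3.28), with limma on both TPM scales (3.99 and 1.53) and without cow replicate 1, where no cow count is left. miR-205 passed with DESeq2 (-2.19) and with no normalization factors (-2.99). miR-125b passed with limma on both TPM scales (3.09 and 2.87). The list held calls in both directions. Of the epithelial list, 5 were tested in edgeR. Of these, miR-141, miR-200b, miR-200c and miR-375 (4 of 5) were higher in sheep, beside 31.3% of all 115 names. None was higher in cow, and 1, miR-205, did not pass. The median log2 fold change of these 5 was 4.76, and miR-200c and miR-205 are in the lists above too. In cow replicates 1, 2 and 3, miR-200b had 0, 1 and 0 counts, miR-141 had 4, 2 and 11, and miR-200c had 7, 2 and 17. By their cow counts alone they would not have been kept for the test, and named rows cover only part of the cow counts. The 4 of 5 is thus no support for a difference of epithelium. Not tested were miR-429, miR-203, which had no named cow row, and miR-200a. miR-200a had a named row only in cow, with 280, 25.2 and 12.9 CPM in cow replicates 1, 2 and 3.

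Among markers of other cell types, some were also far from the other libraries in sheep replicate 1. The counts of list miRNAs at least 2-fold above both others stand beside 33.9% of all rows, and 25.2% without miR-148a. In bulk vesicle RNA, fewer vesicles of a source and less of a miRNA in each cannot be told apart. miR-486, known from red blood cells, had 77184, 741 and 705 CPM in replicates 1, 2 and 3, and miR-122, the defining miRNA of liver, had 70215, 1843 and 5703 CPM. miR-451 and miR-144, also of red blood cells, had no named sheep row. The 4 muscle miRNAs summed to 26555, 550 and 876 CPM, with 2 of 4, miR-1 and miR-206, above on either scale. Most of the muscle sum was miR-1, with 25686, 506 and 650 CPM. miR-133a had 123, 12.5 and 104 CPM, and miR-133b, highest in replicate 3, had 18.9, 6.25 and 28.9 CPM. Of 5 leukocyte miRNAs 4 were above on either scale, with sums of 15082, 12626 and 22253 CPM. Most of that sum was miR-146a, which went the other way, with 9490, 11870 and 20612 CPM, and was at least 2-fold below both others without miR-148a. Of 4 stromal miRNAs 2 were above, and 1 without miR-148a, with sums of 7125, 1709 and 2329 CPM. miR-126 of endothelium had 4768, 502 and 1229 CPM, and the neuronal miR-9 and miR-124 summed to 9302, 2510 and 4401 CPM, with 1 of 2 above, and none without miR-148a.

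Among epithelial miRNAs, 7 of 8 were found in sheep, and 2 of these, miR-375 and miR-429, were at least 2-fold above both others in replicate 1, beside 33.9% of all rows. Without miR-148a it was 1 of 7, beside 25.2%. The sums of the list were 55658, 7475 and 27419 CPM, highest in replicate 1. Most of that sum was miR-375, with 48492, 4758 and 22883 CPM in replicates 1, 2 and 3. Without miR-148a, miR-141 was highest in replicate 2, with 1323, 2298 and 883 CPM. The other rows of the list found in sheep were highest in replicate 1 on that scale. For miR-200c the lead was small, at 3928 CPM in replicate 1 and 3823 CPM in replicate 3. The part of these markers, and of the share taken by miR-148a, in the level of the members was not tested, apart from the values without miR-148a given for each member.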

How the data were processed

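Small RNA of milk EVs was measured in 3 sheep and 3 cow libraries. The deposited counts are whole reads per miRNA row, made by the authors with cutadapt 1.14 and Bowtie per the submitters' processing notes; the sources used here name no build, miRBase release or counting tool. The deposited TPM values are counts divided by a constant per library, from 9859791 to 16091056, without length correction.

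The sheep table lists a sequence per row, and the cow table does not. No table of reference miRNAs was used: 92 sheep rows without a miRBase name were named by hand from their listed sequence, and each name was checked by its seed, allowing a shift of up to 2 bases and asking for 17 or more bases. This replaced the planned matching to RefSeq sequences. Named rows then held 94.9% to 98.2% of sheep counts. Names were joined between species without prefix (129, of which 54 by miRBase name alone), and rows of a name were summed. The members and lists were chosen with earlier results of these data known.

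Counts were tested with edgeR 4.0.16 in R 4.3.3 (quasi-likelihood, TMM, filterByExpr, which kept 115 names) at an adjusted p of 0.05, with standard errors from the fold change and F statistic. Within sheep, CPM with 1 added was compared without a test, over rows of at least 5 CPM on average and with a 2-fold threshold. The test was also run on simulated counts with a common dispersion for all names, and nothing about the members is read from that run. The rule for named miRNAs took all members, list miRNAs past the threshold, the 4 most abundant others of each list, and the 5 rows nearest to miR-31 and miR-34c. Alternatives were DESeq2 1.42.0, limma 3.58.1 on log2 TPM, other scalings, filters, joins and pseudocounts, a replicate block, and leaving out single libraries. The labels do not pair the libraries of the species by replicate number.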

Additional observations from a re-analysis of the deposited data

How the results depend on the processing

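The replicate contrast of single members kept its sign in 42 of 43 settings; the exception was the short form of miR-34c, at 0.36 against the lower of replicates 2 and 3, where replicate 2 has 1 count. One of these settings, both lengths of miR-34c summed (-5.15), was chosen after seeing the data. Rows low in replicate 1, 37 in the report, numbered 87 without miR-148a, 77 with TMM, 64 with a pseudocount of 0.1, 20 at 4-fold and 184 against the higher replicate alone. Rows high there, 159 in the report, numbered 93 with TMM, 95 at 4-fold and 263 against the lower replicate alone. Between species, miR-31 was called in all 13 other settings in which it was tested (adjusted p 4.33e-06 to 0.0484) and miR-34a in all 14 (0.000451 to 0.0497). These settings reuse the same libraries, with 4 cow counts of miR-31 and 0 of miR-34a, so the repeated calls are no further support for a difference. The log2 fold change of miR-31, 5.82, ran from 1.93 with limma on log2(TPM + 10) to 6.66 without sheep replicate 1. That of miR-34a, fitted against no cow count and so no bound, ran from 0.87 with limma on log2(TPM + 10) to 9.21 without cow replicate 3. Neither was tested with miRBase names only or without sheep replicate 3, and miR-31 was also not tested with miR-148a left out or without sheep replicate 2, nor miR-34a without sheep replicate 1. The number of members called was therefore 1 with miR-148a left out and 1 to 2 with a library other than sheep replicate 3 left out, as fewer were tested. Without sheep replicate 3 no member could be called. All names called, 64, became 22 with miRBase names only (10 higher in sheep, 12 in cow), where fewer names were tested, and 40 to 62 with a library left out. Higher in sheep, 36, became 22 with no factors, 75 and 67 with limma on log2(TPM + 1) and log2(TPM + 10), and 20 to 36 with a library left out. Higher in cow, 28, became 7 and 6 with limma and 18 to 26 with a library left out. The mean cow share of the members, 0.000307%, became 1.05e-05% over the TPM constant and 0.000769% without the largest row. That of sheep, 0.381%, became 0.0325% and 0.724%, and 0.161% to 0.559% with a library left out, lowest without sheep replicate 3.

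The replicate block gave 27 names higher in sheep and 27 in cow, with miR-31 at 4.83 and miR-34a at an adjusted p of 0.0497. It ended the call of miR-24-3p (1.49), added miR-215 (-2.45) and changed no member's call. miR-215 was also called higher in cow without sheep replicate 1 (-3.39, adjusted p = 0.000291 in edgeR). Libraries with the same number correlated at 0.0129, 0.102 and -0.146 in their deviations from the species means, so they share only a number. Between species, the changes of sign among named miRNAs were in list miRNAs, and their cause was not tested. miR-125b, -0.20, became 0.018 with DESeq2, 0.29 with upper-quartile factors, 0.19 with whole totals, 0.096 with no filter, 3.09 and 2.87 with limma, 0.76 with miRBase names only, 0.015 with miR-148a left out and -0.37 (without sheep replicate 3) to 0.22 (without sheep replicate 1) with a library left out, with 0.056 without cow replicate 1. miR-143 became -0.23 with no factors. Limma on log2(TPM + 1) and log2(TPM + 10) called both miR-125b and miR-143 higher in sheep, miR-143 at 3.50 and 3.06. With limma on log2(TPM + 1) and log2(TPM + 10), miR-215 became 0.98 and 0.96, miR-16b 0.99 and 0.39, miR-107 1.17 and 0.37, and miR-205 0.89 and 0.31; miR-107 ran from -3.45 without sheep replicate 3 to 0.052 without cow replicate 3. Limma also ended the calls of miR-192 (-0.32 and -0.23) and miR-27b (-0.98 and -0.92), and having no factors ended that of miR-24-3p (0.99).

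Matching over 20 or more bases with no offset was not run, since no reference miRNA table was used, and members by miRBase name alone gave no sheep row. In cow, all member counts are below 3 per library, and named rows hold only 15.8% to 29.0% of the counts.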
